A study of Homo sapiens with 12 samples.

Results

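The effect of microRNA-28 was followed within 3 of the 6 sample pairs of a study in Ramos, a human B cell line from a Burkitt lymphoma. These are pairs 3, 4 and 6, each made of 1 miR-28 and 1 scramble library, so that 6 of the 12 libraries were used. They were chosen from the data, because they lie together on the first principal component of all libraries, and the labels give no reason for this division. Both groups carried pTRIPZ, a lentiviral vector that doxycycline switches on, and the insert was miR-28 in one group and a scrambled sequence in the other. In both groups, transduced cells were selected in 0.4 µg/ml puromycin, given 0.5 µg/ml doxycycline for 2 days and sorted for the vector's red fluorescent protein. Polyadenylated RNA was sequenced. Pair 3 was prepared in library batch 1 and its transduction has no number. Pairs 4 and 6 were prepared in batch 2, from the transductions labelled XENO 1 and XENO 2, whose meaning is not given. Other libraries of the series carry the same 2 labels (pairs 1 and 5 XENO 1, pair 2 XENO 2). The sample descriptions mark pair 4 as "bis" and pair 5 as "tris" of sample 1, and pair 6 as "bis" of sample 2, without saying what was repeated. The labels do not say whether libraries of 1 transduction are separate cultures, so p-values measure only the spread among these libraries, which may be technical. The scramble groups received vector, puromycin and doxycycline too, and no untransduced cells are part of the comparison.

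A microRNA is cut from a hairpin transcript into 2 arms, of which either can be loaded into an Argonaute protein. The seed, bases 2 to 8 of the mature strand, pairs with sites that lie mostly in 3′ untranslated regions and lowers the level or translation of those messengers. In the mouse and human B cell lineage miR-28 is known as a microRNA of germinal centre B cells whose level is reduced in lymphomas of that origin. Ramos resembles germinal centre B cells, expresses surface IgM and is driven by a translocated MYC gene.

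The mature strand of miR-28-3p, from RefSeq on GRCh38.p14, lies at chr3:188688834-188688855 on the plus strand, inside the MIR28 hairpin. It is shown with its seed in capitals, since the 3p sites are its complement. The sites were searched in the longest annotated 3′ untranslated region of each gene (GENCODE release 29, GRCh38) as ATCTAGT for miR-28-3p and AGCTCCT for miR-28-5p, on the messenger strand only, and the 2 motifs cannot overlap. Sites are shown for 6 genes that were lower with miR-28 in all 3 pairs, with the match in capitals.
hsa-miR-28-3p: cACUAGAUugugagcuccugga
NFE2L2, 3p match, chr2:177232860-177232884, minus strand: taaatctgttttATCTAGTaccact
INSIG1, 3p match, chr7:155310136-155310160, plus strand: ccagatttgaacATCTAGTgaggtt
FAS, 3p match, chr10:89014621-89014645, plus strand: aggatgtttaaaATCTAGTtgggaa
SQSTM1, 5p match, chr5:179837767-179837791, plus strand: atgggactccatAGCTCCTtcccag
ATPAF1, 5p match, chr1:46632838-46632862, minus strand: cactagactgtgAGCTCCTtgaggg
E2F6, 5p match, chr2:11445379-11445403, minus strand: cattagactgtgAGCTCCTtgaggg
The windows of ATPAF1 and E2F6 had 24 of 25 letters in common. Both also share an unbroken run of 11 letters, tgtgagctcct, with the mature miR-28-3p strand itself, written as DNA. A match in these letters is a description and not a shown site of repression.

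In the 6 libraries 15404730 to 26870974 reads were recovered from the deposited values, which are CPM, the reads of a gene relative to the total of its library, scaled further by TMM factors that even out composition. The value of 3 reads lay between 0.105 and 0.181 CPM. MIR28 had 0 reads in the 3 scramble libraries and 76, 68 and 32 reads in the miR-28 libraries of pairs 3, 4 and 6. In CPM these were 2.67, 3.16 and 1.14, with the highest value in pair 4. Taking 3 reads over the 3 scramble libraries as the floor, the MIR28 reads with miR-28 were at least 47.4-fold higher, relative to library totals and counting error alone considered. Polyadenylated RNA was sequenced, so that these reads do not measure the level of the mature strands. All 11 listed B cell markers were measured, with sums of 10540 to 11790 CPM in scramble and 11040 to 11760 CPM in miR-28 libraries. Of 11 listed T cell genes 5 were measured, and CD3D, CD3E, CD3G, CD2, CD5 and CD7 were not among them. These 5 summed to 19.7, 134.5 and 95.4 CPM in the scramble and 41.3, 125.6 and 94.8 CPM in the miR-28 libraries of pairs 3, 4 and 6, mostly from TRBC2 and TRAC, the constant regions of the T cell receptor, at 8.69 to 80.5 CPM and 8.83 to 52.1 CPM. Of 8 listed myeloid genes 0 were measured. On the first principal component, which took 67.6% of the variance, these libraries scored from 15.6 to 71.3 and the other 6 from -51.3 to -31.2. The scramble library of pair 3 stood apart, with 7.45% of its reads from the mitochondrial genome against 1.62% to 3.43% in the other 5 libraries. Results that rest on pair 3 are therefore given with each pair's own value.

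**Figure D1:**
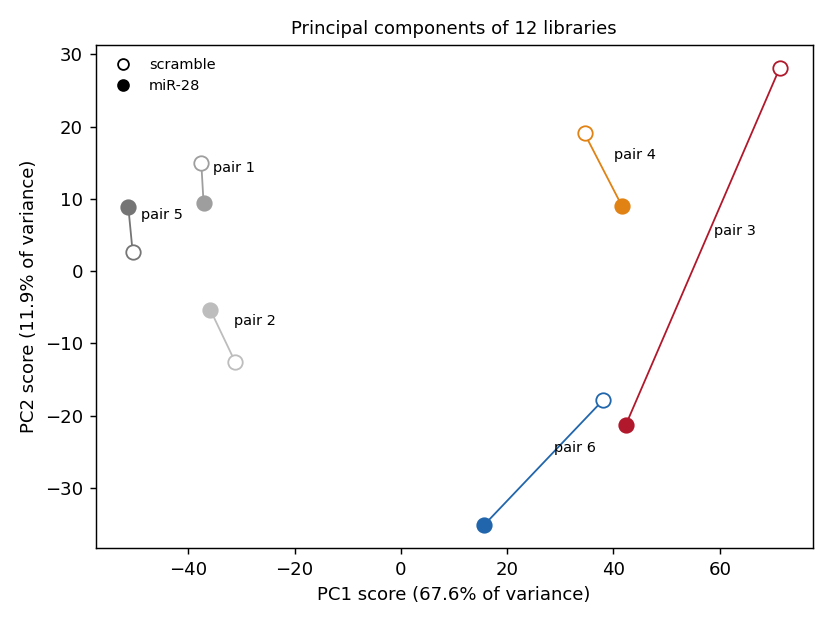
Scores of the 12 libraries on the first (x axis) and second (y axis) principal component, in units of the component. Open circles are scramble and filled circles miR-28 libraries, and lines join pairs. The partners of pairs 3 and 6 lie far apart, while those of pairs 1, 2 and 5 lie close together.

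The first question was which transcripts differed between miR-28 and scramble within these pairs. No single gene passed. Limma on log2(value + 1), with the pair as a block and Benjamini-Hochberg adjustment over all 12725 genes, called 0 (0%), and its smallest adjusted p was 0.271. The unadjusted p was under 0.05 for 1874 genes (14.7%), 1006 higher (7.91%) and 868 lower (6.82%). The edgeR quasi-likelihood test on the recovered reads called 0 as well, with 1794 at an unadjusted p under 0.05. DESeq2 on the same reads called 231 (1.82%), of which 151 were higher and 80 lower. Without pair 3, limma called 79 genes (0.621%), 45 higher and 34 lower, with 936 (7.36%) at an unadjusted p under 0.05, so that the count of 0 rests on that pair. The same fit in pairs 1, 2 and 5 called 1 gene (0.00786%), with 546 (4.29%) at an unadjusted p under 0.05, and in all 6 pairs 3 genes (0.0236%), SPCS3, NFE2L2 and MIR28, with 929 (7.3%). Over 9369 genes with a mean of 10 CPM or more, the SD of the log2 difference was 0.55 in pair 3, 0.23 in pair 4 and 0.35 in pair 6, against 0.16, 0.19 and 0.15 in pairs 1, 2 and 5.

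SPCS3 and NFE2L2, the genes that mark the response in the whole series, were lower in each of the 3 pairs. The whole series holds these pairs and pairs 1, 2 and 5, so that neither set is independent of the choice of these genes. SPCS3 (ENSG00000129128, GRCh38 chr4:176319964-176332245), a subunit of the signal peptidase complex that trims secretory proteins in the endoplasmic reticulum, had 489 CPM with scramble against 272 CPM with miR-28 in pair 3, 401 against 275 CPM in pair 4, and 493 against 244 CPM in pair 6. The lowest scramble value lay above the highest miR-28 value. Its log2 fold change was -0.80 (SE 0.134, limma adjusted p = 0.271), with differences of -0.85, -0.54 and -1.01, and its 3′ untranslated region held 0 matches of either motif. In pairs 1, 2 and 5, which did not enter this fit, SPCS3 was the 1 gene that limma called, with a log2 fold change of -0.95 (SE 0.0714, adjusted p = 0.0152). The other subunits did not share its values: SPCS1 differed by 0.11, 0.10 and -0.09 on the log2 scale in pairs 3, 4 and 6, and SPCS2 by 0.33, -0.04 and -0.22. SEC11A, the catalytic subunit, differed by 0.44, 0.06 and -0.05.

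NFE2L2 (ENSG00000116044, chr2:177227595-177392697) encodes NRF2, the transcription factor that turns on antioxidant and detoxifying genes. It measured 144, 146 and 137 CPM in the scramble libraries of pairs 3, 4 and 6 and 86.8, 105 and 95.9 CPM in their miR-28 partners. The groups did not overlap. Its log2 fold change was -0.57 (SE 0.122, limma adjusted p = 0.271), and in pairs 1, 2 and 5 it was -0.56 (SE 0.0702, adjusted p = 0.167). The list of NRF2, its regulators and its targets did not follow it as a whole: of 24 measured genes 7 were lower and 1 was higher in all 3 pairs, and 0 were called by limma. Over all genes, 20% were lower and 17.6% higher in all 3 pairs. Of this list SQSTM1, the p62 receptor of selective autophagy, and SLC3A2, a chain of the cystine and amino acid transporters, were at least 0.3 lower in each pair. So was MAFF, a small MAF protein whose mean lay under 10 CPM, with -0.70, -0.79 and -0.91. SQSTM1 measured 270, 180 and 118 CPM in scramble and 135, 113 and 77.6 CPM in miR-28. Its lowest scramble value lay below the highest miR-28 value, so that the groups overlap across pairs, although each pair lay the same way. GCLM, of glutathione synthesis, went the other way, with differences of 0.64, 0.20 and 0.21. MAFG, a small MAF protein that binds DNA together with NRF2, differed by -1.74 in pair 3 and -1.17 in pair 6 and by 0.10 in pair 4.

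**Figure D2:**
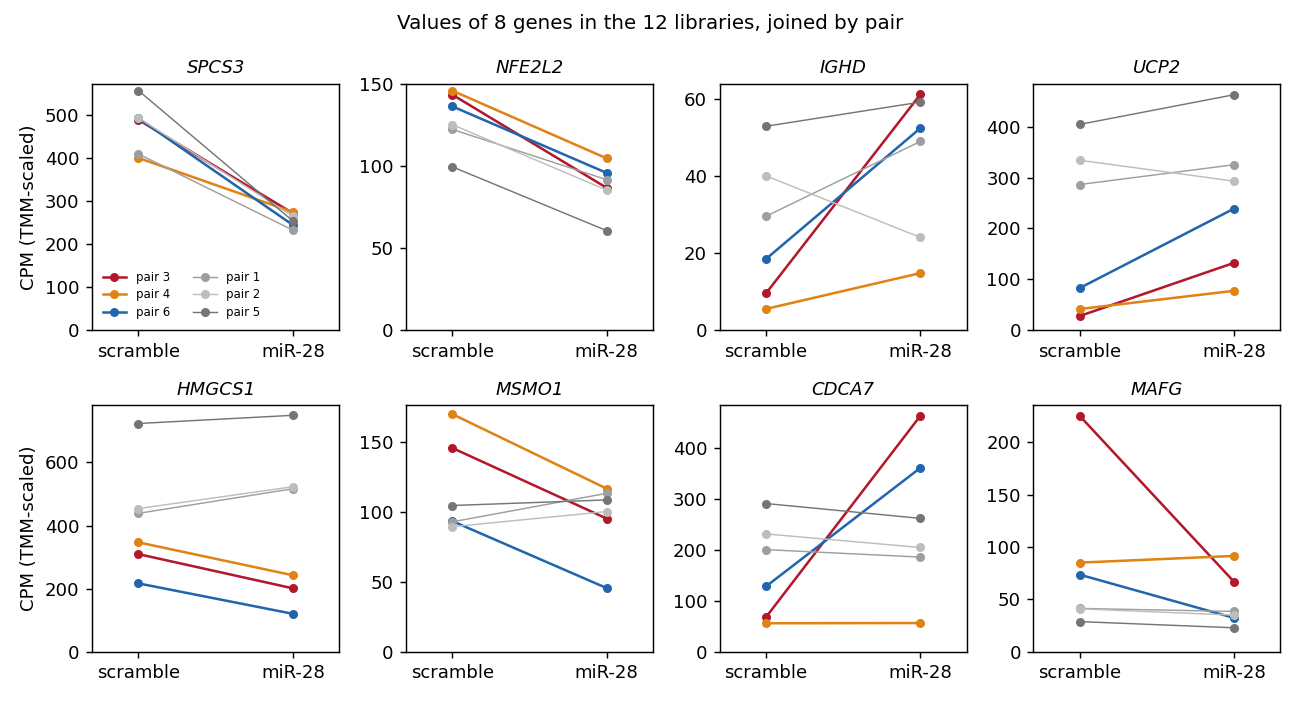
CPM (y axes, from 0) of 8 genes in scramble and miR-28 libraries, with lines joining the libraries of a pair. SPCS3 and NFE2L2 slope down in all 6 pairs, HMGCS1 and MSMO1 slope down in pairs 3, 4 and 6 and slightly up in the others, and CDCA7 and MAFG are flat in pair 4.

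Genes that differed alike were taken as those with a mean of 10 CPM or more over the 6 libraries and a log2 difference of at least 0.3 of 1 sign in pairs 3, 4 and 6. By this rule 150 of 9369 genes (1.6%) were higher and 122 (1.3%) lower. Library totals without TMM factors gave 192 and 93. The rule used these differences, so that they are given as a description with no test. By the size of the smallest difference, CACNB1 (0.3015, higher) and TSC22D3 (0.3001, lower) lay just inside the rule and RAPGEF5 (0.2992, higher) and MT-ND2 (0.2982, lower) just outside. The same rule in pairs 1, 2 and 5 found 2 genes higher and 16 lower. In all 6 pairs it found 0 higher and 4 lower, namely SPCS3, NFE2L2, BIN2, a BAR-domain protein of leukocytes, and ATPAF1, which helps to assemble the ATP synthase of mitochondria. ATPAF1 measured 31.6, 36.3 and 39.7 CPM in scramble and 22.0, 27.1 and 25.3 CPM in miR-28 libraries of pairs 3, 4 and 6, without overlap.

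Pairs 1, 2 and 5 had no part in that choice. Of the 150 genes higher in pairs 3, 4 and 6, 24 (16%) were higher in all of pairs 1, 2 and 5, where 12.1% of the 9369 genes were. Of the 122 lower genes, 24 (19.7%) were lower in all 3 of those pairs, where 10% of the genes were. The median difference of the higher genes was 1.00, 0.44 and 0.54 on the log2 scale in pairs 3, 4 and 6 and 0.05, -0.02 and 0.03 in pairs 1, 2 and 5. For the lower genes these medians were -0.68, -0.41 and -0.52, and -0.06, -0.05 and 0.02.

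**Figure D3:**
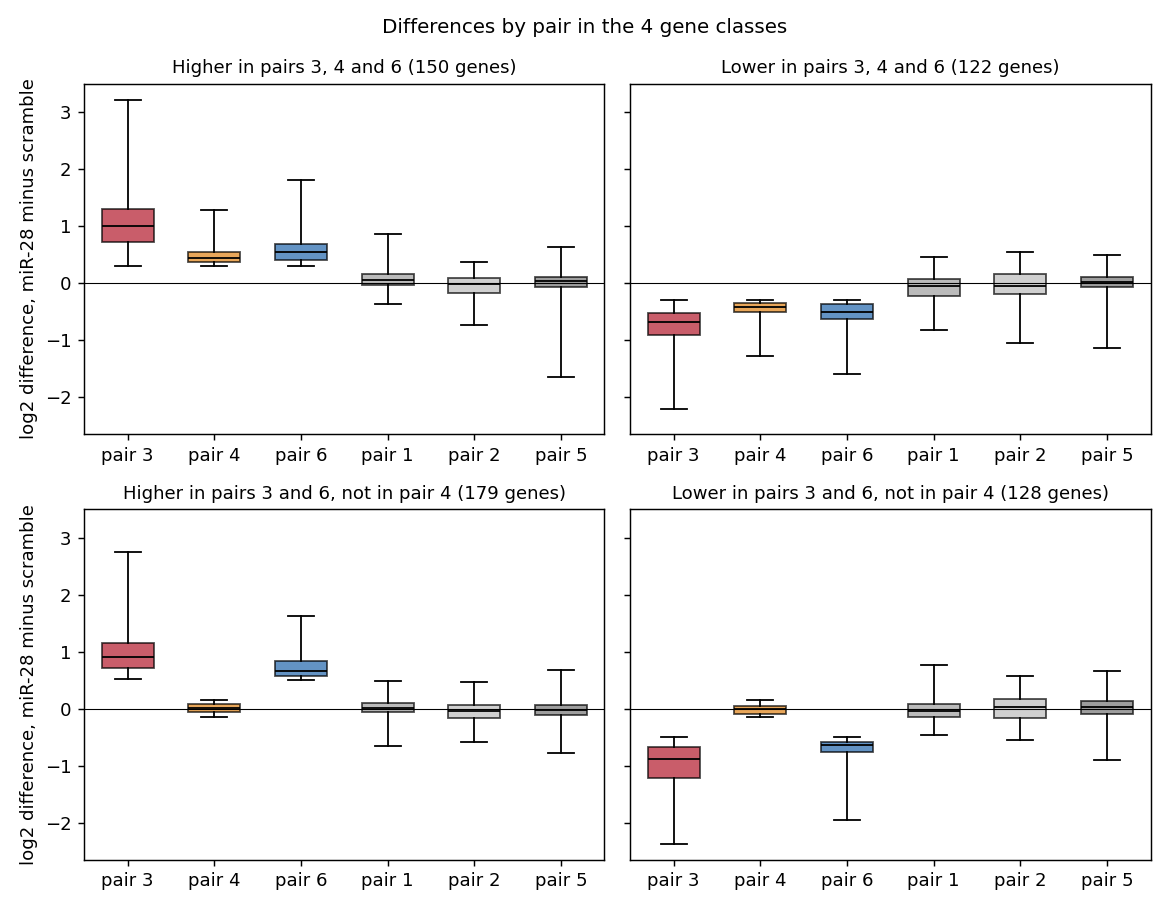
Log2 difference of miR-28 minus scramble (y axis) in each pair (x axis) for the 4 sets of genes described. Boxes give the quartiles with the median as a line, and whiskers reach the lowest and highest gene. Medians in pairs 1, 2 and 5 lie near 0 in each of the 4 sets.

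Among the genes lower in all 3 pairs, those of cholesterol supply stood together by name. Cells make sterols from acetyl-CoA in a long chain of reactions, and the SREBP transcription factors raise the enzymes of this chain when sterols are scarce. Of 26 measured genes of the pathway and its control, 14 were lower and 1 was higher in all 3 pairs, beside 20% and 17.6% of all genes. In limma 0 passed, and 10 were lower and 0 higher at an unadjusted p under 0.05, beside 6.82% and 7.91% of all genes. The median difference of the list was -0.33, -0.37 and -0.21 in pairs 3, 4 and 6 and 0.16, 0.00 and 0.05 in pairs 1, 2 and 5, where 10 of the 26 genes were higher and 0 lower in all 3. For all genes the medians in pairs 3, 4 and 6 were between -0.01 and 0.00 (-0.006, -0.012 and -0.008).

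HMGCS1, the HMG-CoA synthase early in the chain, went from 309 to 201 CPM, from 347 to 242 CPM and from 216 to 120 CPM in pairs 3, 4 and 6, differences of -0.62, -0.52 and -0.85. MSMO1, a sterol demethylase, went from 146 to 95.4 CPM, from 170 to 117 CPM and from 93.6 to 45.6 CPM. With miR-28, pair 6 had the lowest value of both enzymes. The low scramble values of pair 6 made the groups overlap, while each pair lay the same way. SREBF1, which encodes SREBP-1, and INSIG1, the membrane protein that holds SREBPs in the endoplasmic reticulum when sterols abound and is itself a target of SREBP, were also in the set. SREBF1 differed by -0.70, -0.62 and -0.39 and INSIG1 by -0.49, -0.43 and -0.67. SQLE, the epoxidase of squalene, differed by -0.35, -0.41 and -0.60. Other enzymes did not go together. EBP, a sterol isomerase, differed by 0.62, -0.45 and 0.34, and CYP51A1 differed by 0.14, -0.01 and -0.29.

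Of these promoters, those of HMGCS1 and MSMO1 are printed because 15 of the 20 cholesterol genes with a RefSeq promoter (75%) held the NF-Y box, beside 38.9% of the promoters of the 9369 genes. The window runs from 250 bases before to 50 after the annotated start (GRCh38.p14), and CCAAT, the motif of the trimeric factor NF-Y that works beside SREBP, was searched on both strands and is in capitals. The NF-Y box was not particular to this list, since 77.1% of mitosis and 60.4% of DNA replication promoters held it. Of 93 promoters of the lower set 31 (33.3%) held it, and of 122 of the higher set 63 (51.6%). The sterol element TCACNCCAC was found in 1 of the 20, that of SREBF2.
HMGCS1, chr5:43313363-43313662, minus strand: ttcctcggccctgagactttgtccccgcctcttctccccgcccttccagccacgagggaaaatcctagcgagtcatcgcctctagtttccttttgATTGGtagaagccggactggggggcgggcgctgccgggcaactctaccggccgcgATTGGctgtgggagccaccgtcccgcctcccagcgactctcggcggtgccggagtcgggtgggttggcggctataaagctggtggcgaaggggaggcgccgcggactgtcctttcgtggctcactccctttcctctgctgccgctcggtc
MSMO1, chr4:165327419-165327718, plus strand: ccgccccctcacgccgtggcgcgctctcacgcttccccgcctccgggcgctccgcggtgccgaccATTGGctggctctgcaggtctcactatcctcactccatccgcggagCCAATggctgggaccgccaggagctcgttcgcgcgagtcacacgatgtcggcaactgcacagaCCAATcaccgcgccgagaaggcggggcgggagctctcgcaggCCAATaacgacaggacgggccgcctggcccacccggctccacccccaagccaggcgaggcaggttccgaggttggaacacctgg
The HMGCS1 window holds 2 matches and that of MSMO1 holds 4. Matches say nothing of binding in these cells.

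By the smallest of its 3 differences, the lower set was led by JAK3 and TNFAIP2, both genes of immune signalling. JAK3, the kinase of cytokine receptors with the common gamma chain, measured 27.4, 27.9 and 8.49 CPM in scramble and 6.32, 12.99 and 4.22 CPM in miR-28 of pairs 3, 4 and 6. TNFAIP2, a gene induced by tumour necrosis factor, measured 39.4, 15.5 and 5.72 CPM and 13.9, 8.26 and 1.29 CPM. Both were low in pair 6 in either group, so that the groups overlap while every pair differed downward, by the least for TNFAIP2 in pair 4, with -0.83 on the log2 scale. Of 17 measured NF-κB subunits, inhibitors and feedback targets, 7 (41.2%) were lower and 0 higher in all 3 pairs. Among all genes 20% were lower and 17.6% higher. In limma 0 were called, and 6 were lower and 0 higher at an unadjusted p under 0.05, beside 6.82% and 7.91% of all genes. NFKB2, the precursor of the p52 subunit, went from 418 to 244 CPM, from 305 to 186 CPM and from 198 to 154 CPM. ICAM1, an adhesion molecule, differed by -0.58, -0.77 and -0.31 and NFKBIB, an inhibitor, by -0.36, -0.46 and -0.36. NFKBIZ, a nuclear inhibitor and coactivator whose mean lay under 10 CPM, differed by -0.66, -0.59 and -0.76. TNFAIP3, the feedback deubiquitinase A20, differed by 0.33, -0.32 and 0.34 and thus did not go with them. The list's median difference was -0.12, -0.31 and -0.20 in pairs 3, 4 and 6 and -0.02, -0.04 and 0.06 in pairs 1, 2 and 5.

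Further genes of the lower set had other roles. HELZ2, a helicase and coactivator of nuclear receptors, measured 40.6, 32.2 and 20.2 CPM in scramble and 23.0, 20.045 and 11.3 CPM in miR-28. CELSR3, an atypical cadherin, went from 95.5 to 45.3 CPM, from 50.5 to 32.8 CPM and from 44.6 to 19.8 CPM. ESRP1, a splicing regulator best known in epithelia, went from 92.3 to 52.5 CPM, from 16.4 to 9.84 CPM and from 9.03 to 4.97 CPM. For ESRP1 the differences of -0.80, -0.69 and -0.75 were alike although its level was far higher in pair 3 than in the other 2. RPS6KL1, a kinase-like gene with 3 AGCTCCT matches in its 3′ untranslated region, differed by -1.02, -1.28 and -0.64, and by -0.20, -0.39 and -0.34 in pairs 1, 2 and 5. SAMD9L (-0.80, -0.59 and -0.77), ZBTB10 (-0.58, -0.59 and -0.71), ZBED3 (-0.57, -0.88 and -0.63) and CTSO, a cathepsin (-0.60, -1.07 and -0.55), were, like JAK3, TNFAIP2 and SQSTM1, among the 12 with the largest smallest difference. Of p53 targets the death receptors FAS and TNFRSF10B were in the lower set. FAS went from 46.9 to 33.1 CPM, from 49.7 to 21.4 CPM and from 21.2 to 13.8 CPM. CCNG1 and DDB2, of the same list, were in the higher set, by 0.52, 0.32 and 0.72 and by 1.15, 0.71 and 0.33. Over the 17 measured p53 targets 4 (23.5%) were higher and 4 lower in all 3 pairs, beside 17.6% and 20% of all genes.

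Proteasome subunits, which build the protease of ubiquitin-tagged proteins, differed by small amounts in 1 direction. Of 31 measured subunits 21 were lower and 0 higher in all 3 pairs, beside 20% and 17.6% of all genes. The medians were -0.20, -0.21 and -0.13 in pairs 3, 4 and 6 and 0.03, 0.07 and -0.03 in pairs 1, 2 and 5. Limma called 0, and 9 were lower at an unadjusted p under 0.05, beside 6.82% of all genes. PSMB2, of the catalytic core, went from 161 to 116 CPM, from 195 to 155 CPM and from 163 to 112 CPM, and PSMC4, an ATPase of the cap, differed by -0.54, -0.31 and -0.35. Of 20 measured genes of the amino acid response driven by ATF4, 11 were lower and 1 higher in all 3 pairs. The shares of all genes were 20% and 17.6%. Limma called 0 of the 20. TRIB3, a pseudokinase induced by ATF4, differed by -0.55, -0.31 and -0.73 and the transporter SLC3A2 by -0.42, -0.38 and -0.53. In pairs 1, 2 and 5 TRIB3 differed by 0.34, -0.63 and 0.09, and the medians of the list were 0.21, -0.39 and -0.04 (-0.045), so that pairs outside the 3 also differ among themselves.

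By the same measure, the higher set was led by IGHD, ARHGEF3 and UCP2. IGHD, the heavy chain constant region of IgD, measured 9.50, 5.45 and 18.4 CPM in scramble and 61.2, 14.8 and 52.4 CPM in miR-28 of pairs 3, 4 and 6. Pair 4 was low in both groups, and its miR-28 value lay below the scramble value of pair 6. ARHGEF3, a guanine nucleotide exchange factor, measured 1.96, 8.36 and 15.95 CPM in scramble and 26.6, 17.4 and 41.5 CPM. UCP2, a carrier of the inner mitochondrial membrane, went from 27.5 to 132 CPM, from 41.2 to 77.1 CPM and from 82.6 to 239 CPM. UCP2 differed by 2.23, 0.89 and 1.52 on the log2 scale and by 0.18, -0.19 and 0.19 in pairs 1, 2 and 5. The scramble libraries of those pairs measured 287, 334 and 405 CPM, above all 6 libraries of pairs 3, 4 and 6.

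HBEGF, a ligand of the EGF receptor, measured 6.24, 6.84 and 9.57 CPM in scramble and 37.0, 13.1 and 23.9 CPM in miR-28, without overlap. EDRF1, known as a regulator of erythroid genes, went from 54.3 to 196 CPM, from 103 to 190 CPM and from 213 to 362 CPM. OGG1, the glycosylase that removes oxidised guanine from DNA, had the most even differences of the 12 genes of this set that were named by rule, 0.94, 0.75 and 0.95, with 9.01, 10.2 and 20.3 CPM in scramble and 18.2, 17.9 and 40.1 CPM in miR-28. USP30, a mitochondrial deubiquitinase, differed by 1.24, 0.71 and 0.68 and HDAC9, a class IIa histone deacetylase, by 1.72, 0.74 and 0.68. CEP70 and LRRCC1, both centrosomal, differed by 0.95, 0.65 and 0.60 and by 1.65, 0.71 and 0.59. LINC03034, a noncoding RNA, and C21orf58 complete the 12, with 1.55, 0.67 and 0.64 and with 1.36, 0.57 and 1.15. MZB1 and DERL3, of the plasma cell list, were also in the higher set, by 0.60, 0.35 and 0.67 and by 0.99, 0.43 and 0.84. PRDM1, the master regulator of plasma cells, lay at 1.45 to 3.66 CPM in scramble and 1.00 to 2.21 CPM in miR-28. Of the 12 measured plasma cell genes 6 were higher and 4 lower in all 3 pairs, beside 17.6% and 20% of all genes.

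Mitosis genes were the list with most members in the higher set. Of 56 measured genes 47 were higher and 0 lower in all 3 pairs, beside 17.6% and 20% of all genes. The rule of 0.3 in each pair was met by 12, beside 1.6% of the 9369 genes. They were CENPE, CENPF, KIF11, KIF23, CDCA3, NDC80, SPC25, DLGAP5, ANLN, NCAPG, CDC25C and FOXM1. Limma called 0, and 44 were higher at an unadjusted p under 0.05, beside 7.91% of all genes. By pair, the median difference was 0.79 (pair 3), 0.21 (pair 4) and 0.44 (pair 6), while pairs 1, 2 and 5 had medians of 0.00, 0.03 and 0.08. NCAPG, a subunit of condensin, measured 70.6, 102 and 125.04 CPM in scramble and 144, 148 and 179 CPM in miR-28, without overlap. CENPE, the motor at kinetochores, measured 49.0, 60.2 and 82.2 CPM and 94.8, 93.8 and 107 CPM, and KIF11, the motor that separates spindle poles, 95.8, 123 and 139 CPM and 162, 162 and 195 CPM. The rule for this set required each of these genes to be above its scramble partner in all 3 pairs. For CENPE and KIF11 the groups did not overlap either. NCAPG, CENPE and KIF11 were named for the smallest p of the list, so that their lack of overlap does not describe the list. FOXM1, a transcription factor of G2 and M phase genes, differed by 0.86, 0.32 and 0.30.

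The level of cell-cycle genes also differed between the 2 sets of pairs. Summed over the list, mitosis genes gave 4316, 5266 and 5773 CPM in the scramble libraries of pairs 3, 4 and 6 and 6683, 6048 and 7621 CPM in their miR-28 libraries, against 9531 to 10770 CPM in the scramble libraries of pairs 1, 2 and 5. In bulk RNA, fewer dividing cells and less RNA of these genes per cell cannot be told apart. The share of mitochondrial reads was lower with miR-28 in each pair, from 7.45% to 3.43% in pair 3, from 2.88% to 2.62% in pair 4 and from 2.18% to 1.62% in pair 6, and its part in the result was not tested.

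The promoters of NCAPG and DLGAP5 are printed with the CHR, the cell cycle homology region TTTGAA bound by DREAM and MYB-MuvB complexes, in capitals (searched on both strands). Of the 48 mitosis genes with a RefSeq promoter, 35 (72.9%) held it, beside 9.6% of the promoters of the 9369 genes and 15.4% of all 27305 promoters. Of 122 promoters of the higher set 31 (25.4%) held it, and of 93 of the lower set 7 (7.53%).
NCAPG, chr4:17810729-17811028, plus strand: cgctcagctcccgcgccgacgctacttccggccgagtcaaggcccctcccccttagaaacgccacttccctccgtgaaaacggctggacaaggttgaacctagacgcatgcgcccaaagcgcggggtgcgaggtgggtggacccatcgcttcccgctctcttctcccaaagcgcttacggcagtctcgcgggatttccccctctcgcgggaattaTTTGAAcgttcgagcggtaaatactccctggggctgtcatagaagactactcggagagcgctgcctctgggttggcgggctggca
DLGAP5, chr14:55191536-55191835, minus strand: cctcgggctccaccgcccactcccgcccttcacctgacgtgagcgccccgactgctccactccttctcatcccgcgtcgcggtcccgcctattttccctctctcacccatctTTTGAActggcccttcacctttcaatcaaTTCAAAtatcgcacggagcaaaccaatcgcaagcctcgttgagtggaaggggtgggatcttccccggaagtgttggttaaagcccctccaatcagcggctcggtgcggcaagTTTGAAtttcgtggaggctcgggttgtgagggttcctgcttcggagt
NCAPG holds 1 match and DLGAP5, a spindle protein that differed by 1.15, 0.31 and 0.71, holds 3.

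The second set was of genes that differed in pairs 3 and 6 but not in pair 4, taken as a difference of at least 0.5 of 1 sign in pairs 3 and 6 and within 0.15 of 0 in pair 4. There were 179 higher (1.91%) and 128 lower (1.37%) of 9369 genes, again by a rule that used these differences. Just inside lay TMPO (0.81, 0.10 and 0.50 in pairs 3, 4 and 6) and FBRS (-0.50, -0.10 and -0.73), while TMEM241 and PPP1R12C, with differences of 0.4986 upward and 0.4979 downward in pair 6, lay just outside. The same rule with another pair as the flat one gave fewer genes. With pair 6 flat it gave 31 higher and 16 lower, and with pair 3 flat 1 and 1. A difference of 0.5 or more was found for 31% of the genes in pair 3, 4.12% in pair 4 and 13% in pair 6. Fewer genes could thus meet the rule when pair 4 had to differ, and these counts do not set pair 4 apart beyond its smaller spread. In pairs 3 and 6, 47 genes differed by 0.5 or more with opposite signs. In pairs 1, 2 and 5 the medians of the higher genes were 0.01, -0.04 and -0.02 and of the lower genes -0.04, 0.03 and 0.03. Of the higher genes 13 (7.26%) were higher in all of pairs 1, 2 and 5, beside 12.1% of all 9369, and of the lower genes 11 (8.59%) were lower there, beside 10%.

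The higher genes of this set were led by CDCA7, a chromatin protein and target of MYC and E2F. It measured 67.8, 55.8 and 128 CPM in scramble and 463, 56.2 and 361 CPM in miR-28 of pairs 3, 4 and 6. The miR-28 library of pair 4 lay with the scramble libraries. RAD54L, of homologous recombination, measured 9.72, 7.42 and 8.07 CPM and 28.8, 7.19 and 26.9 CPM, and PCLAF, a partner of the replication clamp PCNA, 11.7, 17.4 and 14.9 CPM and 35.9, 17.4 and 38.2 CPM. ORC1, of the origin recognition complex, went from 16.1 to 51.7 CPM in pair 3, from 24.4 to 23.7 CPM in pair 4 and from 25.0 to 56.9 CPM in pair 6. PRIM1, the small subunit of primase, went from 18.3 to 47.5 CPM, from 18.5 to 19.6 CPM and from 23.2 to 51.0 CPM. GSDME, a pore-forming gasdermin, PVRIG, an inhibitory receptor of lymphocytes, TCL6, a noncoding RNA, ARFRP1, a small GTPase, and SPC24, of the kinetochore, differed by 1.14 to 1.39 in pair 3 and by 1.24 to 1.498 in pair 6. SPC24 overlaps another gene on the other strand, and with no strand setting known its reads could be shared. HNRNPA1L3 is a copy of HNRNPA1, so that its values, 1.45, 0.07 and 1.14 (1.135) on the log2 scale, are uncertain as well.

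DNA replication and the G1/S transition gave 18 genes to this set and 2, among them GINS2, to the set higher in all 3 pairs. These sets held 1.91% and 1.6% of the 9369 genes. Of the list's 56 measured genes 24 were higher and 1 lower in all 3 pairs, beside 17.6% and 20% of all genes. Limma called 0, with 34 higher at an unadjusted p under 0.05, beside 7.91% of all genes. The median difference was 0.79 (0.785) in pair 3 and 0.56 in pair 6 and -0.03 in pair 4, where it was 0.01 (0.005) with library totals, so that no direction is given for pair 4. The 18 genes cover the steps of replication: ORC1, ORC2, CDC6, MCM5 and MCM10 of origin licensing and firing, CDC45 and GINS4 of the helicase, PRIM1, POLD3, RFC2 and LIG1 of the fork, TYMS and RRM1 of nucleotide supply, TIMELESS, CLSPN and DTL of fork protection and checkpoint, UHRF1 of methylation upkeep, and E2F2. CDC45 went from 23.5 to 63.1 CPM in pair 3, from 34.0 to 37.3 CPM in pair 4 and from 38.4 to 73.6 CPM in pair 6. TYMS, the thymidylate synthase, went from 79.6 to 178 CPM, from 110 to 102 CPM and from 98.1 to 158 CPM. In both, the miR-28 values of pairs 3 and 6 lay above all others of the 6 libraries. GINS2, of the replicative helicase, was higher also in pair 4, with 28.4, 38.4 and 51.5 CPM in scramble and 79.3, 50.6 and 99.4 CPM in miR-28.

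Summed over the list, DNA replication genes gave 3785, 4735 and 4466 CPM in the scramble libraries of pairs 3, 4 and 6 and 6318, 4680 and 6622 CPM in the miR-28 libraries. The scramble libraries of pairs 1, 2 and 5 gave 9552 to 12110 CPM. The miR-28 libraries of pairs 3 and 6 thus lay above the other 4 of their set and below the lowest of pairs 1, 2 and 5. The part of the library batch in this pattern was not tested.

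The promoters of UHRF1 and E2F2 are shown for the E2F element TTTNNCGC, in capitals, searched on both strands. Of the 48 replication genes with a RefSeq promoter, 27 (56.2%) held it, and of 153 promoters of the set higher in pairs 3 and 6 32 (20.9%) did, beside 11.8% of the 9369 genes' promoters and 6.9% of all promoters. Of the set lower in pairs 3 and 6, 3 of 89 (3.37%) held it. The run of capitals in E2F2 that is longer than 8 letters is 2 overlapping matches.
UHRF1, chr19:4909251-4909550, plus strand: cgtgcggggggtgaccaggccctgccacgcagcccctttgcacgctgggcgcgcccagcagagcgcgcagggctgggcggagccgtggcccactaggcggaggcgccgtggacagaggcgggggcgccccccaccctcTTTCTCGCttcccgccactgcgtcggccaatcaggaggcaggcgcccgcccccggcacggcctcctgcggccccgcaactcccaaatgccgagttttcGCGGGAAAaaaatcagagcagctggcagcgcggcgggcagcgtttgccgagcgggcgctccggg
E2F2, chr1:23531184-23531483, minus strand: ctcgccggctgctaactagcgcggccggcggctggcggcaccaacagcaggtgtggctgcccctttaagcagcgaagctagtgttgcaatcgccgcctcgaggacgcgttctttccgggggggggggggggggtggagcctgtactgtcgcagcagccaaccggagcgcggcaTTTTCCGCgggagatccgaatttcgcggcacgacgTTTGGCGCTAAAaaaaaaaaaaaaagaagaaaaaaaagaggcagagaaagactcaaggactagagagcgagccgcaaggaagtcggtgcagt
UHRF1 differed by 1.24, -0.08 and 0.74 in pairs 3, 4 and 6 and E2F2 by 0.76, 0.02 and 0.53.

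**Figure D4:**
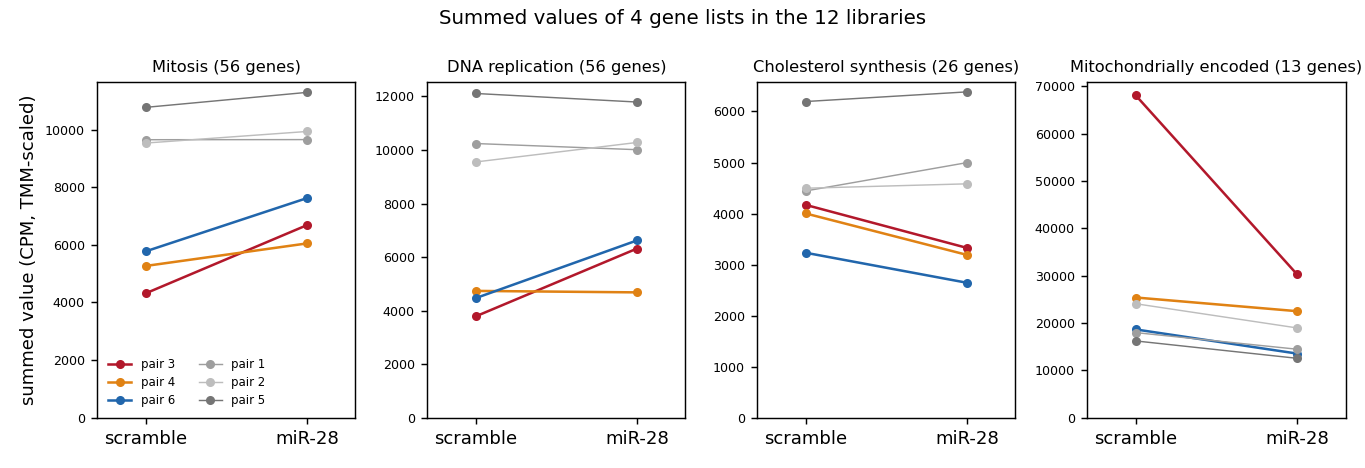
Summed CPM (y axes, from 0) of 4 gene lists in scramble and miR-28 libraries, with lines joining pairs. Mitosis and DNA replication sums of pairs 3, 4 and 6 lie below all values of pairs 1, 2 and 5, and the mitochondrially encoded sum is highest in the scramble library of pair 3, at 68080 CPM.

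The genes lower in pairs 3 and 6 but not in pair 4 were led by channels and regulators with a high value in the scramble library of pair 3. KCND1, a potassium channel, measured 66.7, 16.4 and 9.69 CPM in scramble and 12.1, 17.1 and 2.68 CPM in miR-28. ASIC3, an acid-sensing ion channel, measured 65.1, 15.2 and 14.0 CPM and 17.4, 14.8 and 3.54 CPM. In both genes the scramble library of pair 3 was far above and the miR-28 library of pair 6 far below the other 4. DMPK, a kinase of muscle and other cells, went from 167 to 73.6 CPM, from 92.3 to 83.5 CPM and from 95.7 to 39.8 CPM. SBF1, a regulator of phosphoinositide phosphatases, went from 348 to 165 CPM, from 342 to 317 CPM and from 285 to 147 CPM. FLCN, the folliculin of lysosomal nutrient sensing, and LPAR2, a receptor of lysophosphatidic acid, differed by -1.25 and -1.31 in pair 3 and by -1.14 each in pair 6. ZDHHC11, CFAP44, AMY2B and IL18BP, the binding protein of interleukin 18, were among the 12 as well, with MAFG. Of the 29 measured genes of the unfolded protein response and ER-associated degradation, HERPUD1, PPP1R15A and HYOU1 were in this set. HERPUD1, of ER-associated degradation, went from 567 to 338 CPM, from 369 to 366 CPM and from 398 to 257 CPM. XBP1, the transcription factor of that response and of plasma cells, differed by 1.16, 0.25 and 0.47 and so lay on the other side.

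Transcripts of the mitochondrial genome were lower in all 3 pairs, by unequal amounts. All 13 protein-coding transcripts were lower in all 3 pairs, beside 20% of all genes. In all of pairs 1, 2 and 5, 12 were lower, beside 1513 of all 12725 genes. Limma called 0 in pairs 3, 4 and 6, and 12 were lower at an unadjusted p under 0.05, beside 6.82% of all genes. MT-ND1 (chrM:3307-4262), of respiratory complex I, measured 3915, 1397 and 1060 CPM in scramble and 1428, 1099 and 589 CPM in miR-28 of pairs 3, 4 and 6. The scramble library of pair 3 was far above the other 5, and pair 4 differed least. The median difference was -1.18, -0.17 and -0.52, beside -0.28, -0.35 and -0.38 in pairs 1, 2 and 5. MT-ND1 and MT-ND3 met the rule for genes alike in the 3 pairs, and MT-ND5 and MT-ND6 that for pairs 3 and 6. Reads of nuclear copies of these genes may be counted with them, so that the values are uncertain.

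Of 11 measured reported targets of miR-28, 4 (36.4%) were lower and 1 (9.09%) was higher in all 3 pairs, beside 20% and 17.6% of all genes, and 0 were called by limma. Their median difference was -0.30, -0.12 and -0.18 in pairs 3, 4 and 6. In pairs 1, 2 and 5 it was -0.06, -0.02 and -0.25, and 7 of the 11 were lower in all 3 of these pairs, beside 1513 of all 12725 genes. NFE2L2 and E2F6, a repressor of the E2F family, met the rule for genes alike in the 3 pairs. E2F6 measured 28, 25.3 and 20.7 CPM in scramble and 19.7, 18.4 and 16.4 CPM in miR-28, without overlap. TEX261 differed by -0.34, -0.12 and -0.30 and N4BP1 by -0.09, -0.13 and -0.18. MAD2L1, of the spindle checkpoint, differed by 0.82, 0.17 and 0.15, together with the mitosis genes. BAG1, with 3 AGCTCCT matches, differed by 0.27, -0.07 and -0.16, RAP1B by -0.05, 0.03 and -0.15, HOXB3 by -1.08, 0.20 and -0.98, OTUB1 by -0.42, -0.29 and 0.07, NME1 by -0.30, -0.28 and 0.01, and RAB23 by 0.31, 0.01 and -0.36. The labels do not tell whether these targets were first found in the same libraries.

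Seed matches were counted in both sets, and no test of a difference was run. Of 113 genes lower in all 3 pairs with an annotated 3′ untranslated region, 16 (14.2%) held AGCTCCT and 10 (8.85%) held ATCTAGT, beside 15.8% and 8.35% of the 8836 genes of the background. Of 139 genes of the higher set 27 (19.4%) and 11 (7.91%) did. The median length of the region was 1335 bases in the lower and 1211 in the higher set, beside 1437. The transcripts of the lower set were richer in G and C, with a median of 52.8% beside 47.2% of the background and 47.2% (47.25) of the higher set. The set higher in pairs 3 and 6 had shorter transcripts, with a median of 2802 bases, and the set lower there longer ones, with 4560 bases, beside 3729. Of the set lower in pairs 3 and 6, 86.7% were protein-coding, beside 94.8%.

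**Figure D5:**
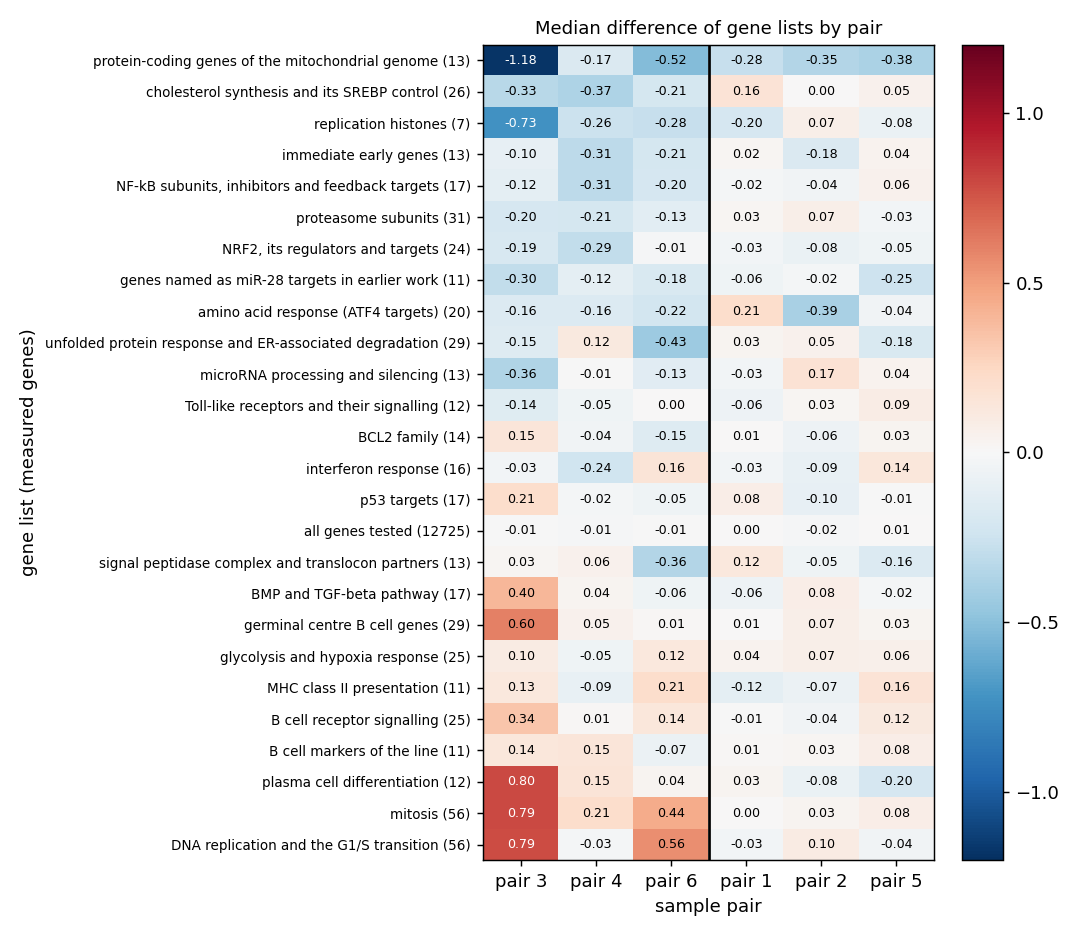
Median log2 difference of miR-28 minus scramble (colour and number) of each gene list with 5 or more measured genes (rows, number of genes in brackets) in each pair (columns). The vertical line divides pairs 3, 4 and 6 from pairs 1, 2 and 5. Mitosis reads 0.79, 0.21 and 0.44 left of the line.

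Of 29 measured germinal centre genes 12 were higher and 4 lower in all 3 pairs, beside 17.6% and 20% of all genes. The medians of the list were 0.60, 0.05 and 0.01. GCSAM, a membrane-bound adaptor of germinal centre B cells, differed by 1.87, 0.52 and 0.31, with 48.8 CPM in the scramble library of pair 3 against 105 to 222 CPM in the other 5. STAP1, an adaptor of the B cell receptor pathway, differed by 0.78, 0.36 and 0.58. Of 25 genes of B cell receptor signalling 9 were higher and 4 lower. SYK, its kinase, differed by 1.13, 0.01 and 0.47, and CD79B, a signalling chain of the receptor, by 1.19, 0.13 and 0.20, with 237 CPM in the scramble library of pair 3 against 543 to 823 CPM in the other 5. GCSAM and CD79B were thus low in 1 library above all. CD79A, another B cell marker, went the other way, by -0.39, -0.14 and -0.35. It measured 586 CPM in the scramble library of pair 3 and 448 CPM in its miR-28 partner. CD27, a receptor of memory B cells, went from 29.7 to 190 CPM, from 92.3 to 114 CPM and from 176 to 307 CPM.

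Immediate early genes had 7 lower and 1 higher of 13 measured, among them JUND (-0.31, -0.68 and -0.68) and JUN (-0.42, -1.08 and -0.70). Interferon response genes had 6 lower and 1 higher of 16, glycolysis and hypoxia genes 6 lower and 2 higher of 25, and the microRNA machinery 3 lower and 0 higher of 13. MHC class II genes had 4 higher and 1 lower of 11, Toll-like receptor genes 2 and 3 of 12, BCL2 family genes 2 and 2 of 14 and BMP and TGF-β pathway genes 1 and 1 of 17. Of 29 genes of the unfolded protein response 8 were lower and 1 higher, of 7 replication histone genes 6 and 0, of 13 signal peptidase and translocon genes 3 and 0, and of 11 B cell identity genes 3 and 2. The histone medians were -0.73, -0.26 and -0.28 in pairs 3, 4 and 6 and -0.20, 0.07 and -0.08 in pairs 1, 2 and 5, and 1 of the 7 had a mean of 10 CPM or more. The libraries held polyadenylated RNA, and 7 of 33 listed histone genes were measured, so that these values do not stand for the histone genes as a whole. Beside these counts, 20% of all genes were lower and 17.6% higher in all 3 pairs, and several lists lay near those shares. Lower were 24% of glycolysis and hypoxia genes, 23.1% of the microRNA machinery and 25% of Toll-like receptor genes. Of BCL2 family genes 14.3% went each way. Limma called 0 genes of any list in this paragraph. GAPDH, the glycolytic enzyme often used as a reference gene, was in the set higher in pairs 3 and 6, with 711, 895 and 1260 CPM in scramble and 1494, 891 and 2317 CPM in miR-28. ID1, an inhibitor of helix-loop-helix factors induced by BMP signals, went from 4.15 to 14.6 CPM, from 8.72 to 8.17 CPM and from 20.2 to 44.4 CPM.

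Whether the effect differed between pairs 3, 4 and 6 and pairs 1, 2 and 5 was tested over all 12 libraries in 1 model that kept the pair as a block. By limma 0 genes (0%) were called, with 1634 (12.8%) at an unadjusted p under 0.05, and edgeR 0, with 1592. DESeq2 called 73 (0.574%), 45 more positive and 28 more negative in pairs 3, 4 and 6. Without pair 4, limma called 741 (5.82%), 462 more positive and 279 more negative. Without pair 3 or pair 6 it called 0, with 1085 (8.53%) at an unadjusted p under 0.05 without pair 3 and 1589 without pair 6. These sets of pairs were made from the data, so that the p-values do not hold as those of a planned comparison. The differences of HMGCS1 and MSMO1 were below 0 in pairs 3, 4 and 6 and above 0 in pairs 1, 2 and 5, by 0.24, 0.20 and 0.05 for HMGCS1 in the latter. For SPCS3 and NFE2L2 the effects of the 2 sets differed by 0.15 (limma unadjusted p = 0.357) and -0.01 (0.935) on the log2 scale.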

How the data were processed

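RNA-seq libraries of sorted Ramos cells were given as 1 table of 12725 genes. Per the submitters' processing notes, CASAVA 1.8.2, cutadapt, RSEM 1.2.3 and GRCh38 were used. Annotation, low-value filter and scaling: not given in the sources used here. Signal values deposited by the authors were whole multiples of 1 read within 0.01 reads (100%). TMM factors computed from these reads matched the scaling of all 12 libraries within 0.001%, so the values were read as TMM-scaled CPM. In 5 libraries the smallest value was taken as 2 reads. Depths and floors cover counting error only. No value was left out and 0 per-sample columns were unused.

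Limma 3.58.1 (trend) in R 4.3.3 was run on log2(value + 1) with the pair as a block, two-sided, Benjamini-Hochberg adjusted over all genes. Fold changes on this scale understate those of low genes. EdgeR 4.0.16 and DESeq2 1.42.0 ran on the recovered reads. Tested on simulated data with 12725 genes, of which 100 were given a 1.5-fold and 100 a 2-fold change, the paired fit found 29% and 84% of them and 4 others. The difference between pair sets found 4% and 39%, and 2 others. In the simulated data a changed gene had the same fold in each pair that carried it, and all libraries shared 1 trend of spread. The real pairs differed in spread, so that these shares need not hold for them.

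The pairs come from the labels' sample pairs. Deviations from the group means over 10508 genes correlated within pairs by 0.555, 0.461 and 0.628 for pairs 3, 4 and 6. With the other group's libraries of another pair they correlated by at most -0.035. The 3 deviations of a group sum to 0, so that negative values are in part built in and do not bear on the pairing.

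The pairs, the members and the 28 gene lists, 1 of them with 0 measured genes, were chosen with earlier results of these data known. Named by rule were MIR28, SPCS3 and NFE2L2, the 12 genes of each set and direction with the largest smallest difference, all measured reported targets and mitochondrially encoded genes and, per remaining list, the 4 genes of smallest p at most. Other genes were named after their values were seen, and some items are not reported here. Symbols matched 12528 genes and GENCODE release 29 held 12595. Alternatives covered scaling, pseudocount, filters, tool, block, thresholds and leaving out each pair.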

Additional observations from a re-analysis of the deposited data

Results flagged for a closer look

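For 12 named genes each of pairs 3, 4 and 6 differed in 1 direction and each of pairs 1, 2 and 5 in the other. Limma called 0 genes for the difference of the effects after Benjamini-Hochberg adjustment, with 1634 at an unadjusted p under 0.05. These genes were picked by their signs, so that the pattern itself was not tested. The values are the effect in pairs 3, 4 and 6 minus that in pairs 1, 2 and 5 on the log2 scale. Cholesterol genes were more negative in pairs 3, 4 and 6, HMGCS1 by -0.82 and MSMO1 by -0.89. SBF1 (-0.82), the phosphofructokinase PFKM (-0.55), the exonuclease ISG20 (-0.65), the cathepsin CTSS (-0.45) and TNRC6C (-0.53, from -0.535), of microRNA silencing, were too. More positive were CDCA7 by 1.56, DERL3 by 1.08, PRIM1 by 0.95, CEP70 by 0.90 and HLA-DOA, of antigen presentation, by 0.36. Only the sign in each pair was asked for, and some differences lay near 0. In pair 4 CDCA7 differed by 0.01, HLA-DOA by 0.04, PRIM1 by 0.08 and SBF1 by -0.11. CDCA7, PRIM1 and SBF1 belong to the sets taken as not differing in pair 4.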

How the results depend on the processing

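The count of genes called within pairs 3, 4 and 6 was 0 under other pseudocounts, scalings, a mean of 5 or more, edgeR and without MIR28, 231 with DESeq2 and 0 to 79 without 1 pair. The difference between the sets of pairs gave 0 under these settings too, 73 with DESeq2 and 0 to 741 without 1 pair. With no replicate block the pairing was dropped and both counts were 0, with 755 and 436 genes at an unadjusted p under 0.05. Genes alike in the 3 pairs numbered 190 to 1018 higher and 162 to 899 lower when the rule was applied to 2 pairs, which asks less of a gene. Stricter thresholds (0.5 alike, 0.7 in pairs 3 and 6) gave 27 and 20 genes alike and 60 and 37 for pairs 3 and 6, and looser ones (0.2 and 0.3) gave 355 and 361, and 464 and 454. A mean of 30 CPM or more left 89 higher alike and, for pairs 3 and 6, 111 and 84. Other settings kept each count within 1.5 times. No count without 1 pair was made for pairs 3 and 6, since its rule needs each pair. Of 165 named genes, 61 passed in DESeq2 and 31 without pair 3, and RAB23 changed sign with library totals, from -0.02 to 0.02. With 3 pairs, changes under 2-fold are often missed, and larger ones went uncalled as well. IGHD and UCP2 differed by 1.77 and 1.55 on the log2 scale. Their limma adjusted p was 0.271 each. Genes near 0.105 to 0.181 CPM are limited by 3 reads.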
